A study of Mus musculus with 20 samples.

Results

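The 10 genes followed here were Ucp3, Acot1, Acot2, Angptl4, Mlycd, Lpl, Pnpla2, Dgat2, Plin2 and Plin5, a set of lipid handling genes known to respond to peroxisome proliferator-activated receptors (PPARs). Each was read from the probe set that the platform annotation pairs with that symbol alone, taking the one with the highest mean over the 20 arrays. All 10 lay above the expression filter and were among the 12082 genes tested, out of 18193 genes with such a probe set.

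PPARs are nuclear receptors that bind fatty acids and pair with retinoid X receptors on DNA, where the classical element is a direct repeat of the hexamer AGGTCA with 1 base between the copies. The heart draws most of its energy from fatty acids, and in cardiac muscle PPARα raises genes that free fatty acids from lipoproteins, store them in lipid droplets, release them and burn them in mitochondria. Fasting and other states of high circulating fatty acid are known to raise Ucp3, Acot1, Angptl4 and Plin2 in muscle and heart.

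The samples were heart ventricle from female C57BL/6 mice. Ovaries had been removed at 8 weeks of age, an Alzet minipump then delivered cyclodextrinated estrogen or placebo for 4 weeks, and so every group, the controls included, lacked its ovaries. The 4 groups of 5 arrays each are placebo (titled OVX), 17β-estradiol (titled E2), the receptor α agonist 16α-LE2 (titled alpha), and a group titled beta whose treatment label says control solution. Because its labels disagree, that last group stayed separate and is named beta-titled. Doses are not given in the labels. The labels do not say in so many words that each array is a separate mouse, and if some share a source the p-values measure technical spread.

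On the arrays as a whole, the 20 medians ran from 6.89 to 7.03 on the deposited log2 scale. The Spearman correlations between arrays were 0.978 to 0.992, except that those of estradiol replicate 33 were 0.922 to 0.941. The SD of all values on an array was 1.41 to 1.48 in placebo, 1.30 to 1.44 in the beta-titled group, 1.34 to 1.45 in estradiol and 1.38 to 1.41 in 16α-LE2. The 10 cardiomyocyte markers, such as Myh6 and Tnnt2, were all above the filter, with an average level of 13.79 to 14.19 on the 20 arrays. The average over 5 atrial markers, such as Myl7, was 9.20 to 10.16 in placebo and 9.41 to 11.19 with estradiol. For these 5 it was 8.67 to 10.46 with 16α-LE2 and 9.10 to 10.35 in the beta-titled group. Of the 8 white adipocyte markers with a probe set, Adipoq (mean 6.72), Cidec (6.90) and Adig (6.81) lay below the filter at 6.93. The other 5 lay above it, namely Fabp4 (13.95), Retn (8.20), Lipe (8.09), Lep (7.30) and Car3 (7.13). With 16α-LE2 2 of these 5 had a mean above placebo and 3 below, where 59.7% of all genes were lower. The average over the 8 was 7.96 to 8.33 in placebo and 8.06 to 8.47 with estradiol. It was 7.86 to 8.10 with 16α-LE2 and 8.13 to 8.20 in the beta-titled group. The part of fat cells or atrial tissue in the values below was not tested.

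RefSeq promoters, from 250 bases before to 50 bases after a transcription start (build GRCm38.p6), were matched by symbol for 7 of the 10 genes, in 8 windows because Plin5 has 2. They are shown because the set is defined by a DNA-binding receptor, and the members that hold a hexamer are printed. Each is written along the gene's own strand, and capitals mark AGGTCA or its reverse complement TGACCT. Ucp3 is at chr7:100472741-100473040 on the plus strand, Plin2 at chr4:86670010-86670309 on the minus strand, and the first Plin5 window at chr17:56117499-56117798 on the minus strand.
Ucp3: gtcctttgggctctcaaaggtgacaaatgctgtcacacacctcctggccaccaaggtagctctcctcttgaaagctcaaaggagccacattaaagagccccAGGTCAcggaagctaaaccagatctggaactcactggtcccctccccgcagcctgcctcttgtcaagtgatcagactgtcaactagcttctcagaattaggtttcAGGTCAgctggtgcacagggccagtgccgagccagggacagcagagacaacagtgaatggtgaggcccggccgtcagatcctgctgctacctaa
Plin2: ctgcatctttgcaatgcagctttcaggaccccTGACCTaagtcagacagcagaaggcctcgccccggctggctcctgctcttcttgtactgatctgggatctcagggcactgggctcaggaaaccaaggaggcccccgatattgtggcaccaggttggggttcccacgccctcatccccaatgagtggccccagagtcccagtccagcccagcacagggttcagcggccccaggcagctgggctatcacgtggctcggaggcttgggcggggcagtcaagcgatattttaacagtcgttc
Plin5: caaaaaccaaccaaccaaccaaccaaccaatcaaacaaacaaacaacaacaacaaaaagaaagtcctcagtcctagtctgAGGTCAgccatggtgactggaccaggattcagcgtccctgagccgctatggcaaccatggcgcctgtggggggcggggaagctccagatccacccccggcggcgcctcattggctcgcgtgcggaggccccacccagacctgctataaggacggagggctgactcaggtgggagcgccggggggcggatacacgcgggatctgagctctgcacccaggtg
The Ucp3 window holds 2 hexamers, whose first bases are 149 and 44 bases before the start, and the Plin2 window holds 1 on the opposite strand, 218 bases before it. The Plin5 window shown has 1, 170 bases before the start. The other Plin5 window also has 1, 13 bases after a second start. No hexamer was found in the windows of Acot1, Acot2, Mlycd or Pnpla2. Among all 32851 windows of this length 16.3% hold at least 1 hexamer on either strand. The full direct repeat AGGTCANAGGTCA was in none of the 8 windows and in 0.0396% of all windows. The palindromic estrogen response element GGTCANNNTGACC, which shares the letters GGTCA with the hexamer, was also in none of the 8 and in 0.07% of all. A match describes letters only, and the lack of one says only that these letters are not in that window.

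Every gene of the set lay above the filter and none passed the test in any comparison. With limma and a Benjamini-Hochberg adjustment over all 12082 genes, 0 of 10 passed for 16α-LE2 against placebo, where 0.223% of all genes did. The count was 0 of 10 for estradiol and for the beta-titled group against placebo, where 0% of all genes passed. It was also 0 of 10 for 16α-LE2 against estradiol (0.0166% of all genes), 16α-LE2 against the beta-titled group (0.174%) and estradiol against the beta-titled group (0%), and in the F test over the 4 groups (0.157%). Before adjustment, a limma p under 0.05 was reached by Ucp3 and Plin5 with 16α-LE2 (2 of 10, against 9.01% of all genes) and with estradiol (2 of 10, against 9.63%), and by Plin5 alone in the beta-titled group (1 of 10, against 5.7%). With 16α-LE2 against estradiol Acot1 alone reached it (1 of 10, against 5.19%), against the beta-titled group Acot1 and Plin2 did (2 of 10, against 5.6%), and with estradiol against the beta-titled group none did (0 of 10, against 3.83%). For a typical gene the 95% interval reached 0.21 log2 units to either side of a difference, and each of the 10 members had an SD within groups above the median gene's 0.16, from 0.17 for Lpl to 0.71 for Angptl4.

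**Figure D1:**
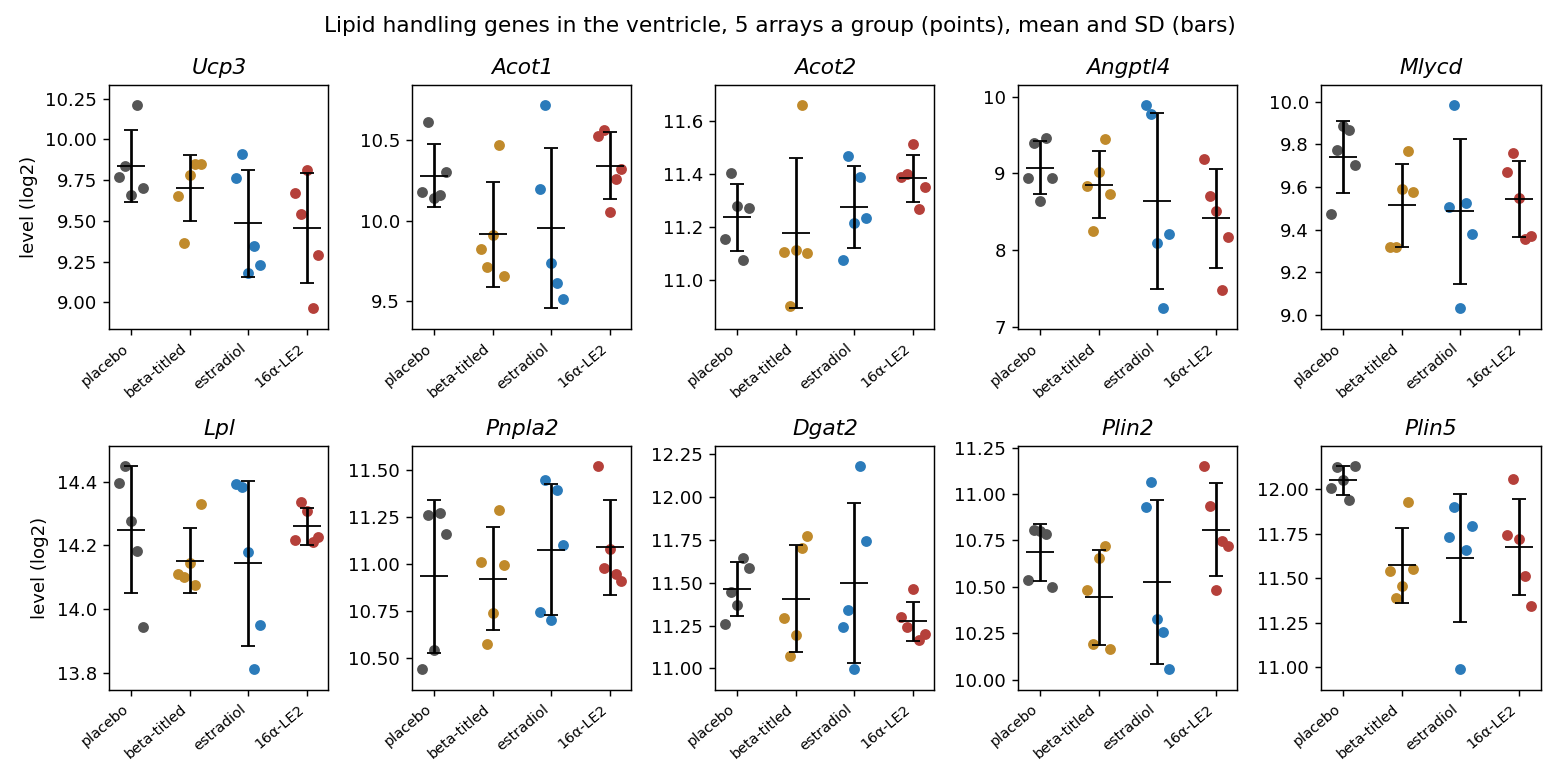
Level (log2, as deposited) of each of the 10 genes on every array, by group, with points for arrays and bars for the mean ± SD (n = 5). Placebo Plin5 sits between 11.94 and 12.13, above all estradiol and beta-titled arrays, while Angptl4 with estradiol spreads from 7.24 to 9.89.

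The first genes coat and serve the lipid droplet, the store from which the cardiomyocyte draws fatty acid. Plin5, the perilipin that ties droplets to mitochondria in oxidative tissues, had its highest mean in placebo. Its log2 levels in placebo replicates 31, 32, 33, 34 and 36 were 12.01, 12.12, 12.05, 11.94 and 12.13, a narrow band with an SD of 0.08. With estradiol they were 11.73, 11.90, 10.99, 11.66 and 11.80 in replicates 29, 30, 33, 34 and 35. In the beta-titled group they were 11.54, 11.39, 11.46, 11.93 and 11.55 in replicates 31, 32, 33, 35 and 36. All 5 estradiol arrays and all 5 beta-titled arrays therefore lay below all 5 placebo arrays. Such a separation downwards was seen in 0.67% of all genes with estradiol and 0.406% with the beta-titled group, and Plin5 was the 1 member of 10 to show it in either comparison. With 16α-LE2 the levels were 11.74, 12.06, 11.72, 11.51 and 11.34 in replicates 29, 30, 32, 33 and 34, so that replicate 30 reached into the placebo range.

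The Plin5 mean was 1.30-fold below placebo with 16α-LE2 (log2 difference −0.37 ± 0.15 SE, limma adjusted p = 0.416), 1.35-fold with estradiol (−0.43 ± 0.15, limma adjusted p = 0.499) and 1.39-fold in the beta-titled group (−0.48 ± 0.15, limma adjusted p = 0.707). These comparisons share the placebo arrays. An exact two-sided permutation test of the 5 against 5 arrays gave p = 0.0317, 0.0079 and 0.0079 in that order, unadjusted and among 60 such tests. The value 0.0079 is the smallest that 5 against 5 can give. A second Plin5 probe set, of lower level, had log2 differences of −0.41 ± 0.17, −0.43 ± 0.17 and −0.49 ± 0.17 (SE). On it estradiol replicate 30, at 11.40, lay above the lowest placebo array at 11.34, while the beta-titled arrays again stayed below placebo.

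Estradiol replicate 33 is the lowest Plin5 array and the array that stands apart. Without it the estradiol difference was −0.28 ± 0.12 (SE, limma adjusted p = 0.884), and with the placebo and beta-titled arrays pooled as controls it was −0.20 (limma adjusted p = 0.666) and that of 16α-LE2 was −0.14 (limma adjusted p = 1). The beta-titled arrays 31 and 32 and estradiol replicate 33 have the narrowest spread of values over all probe sets, and placebo replicate 33 the widest. After quantile normalization, which equalizes that spread, the Plin5 differences were −0.26 with 16α-LE2, −0.30 with estradiol and −0.29 in the beta-titled group. Beta-titled arrays then reached 11.88, above the lowest placebo array at 11.84, whereas the highest estradiol array stayed at 11.83.

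**Figure D2:**
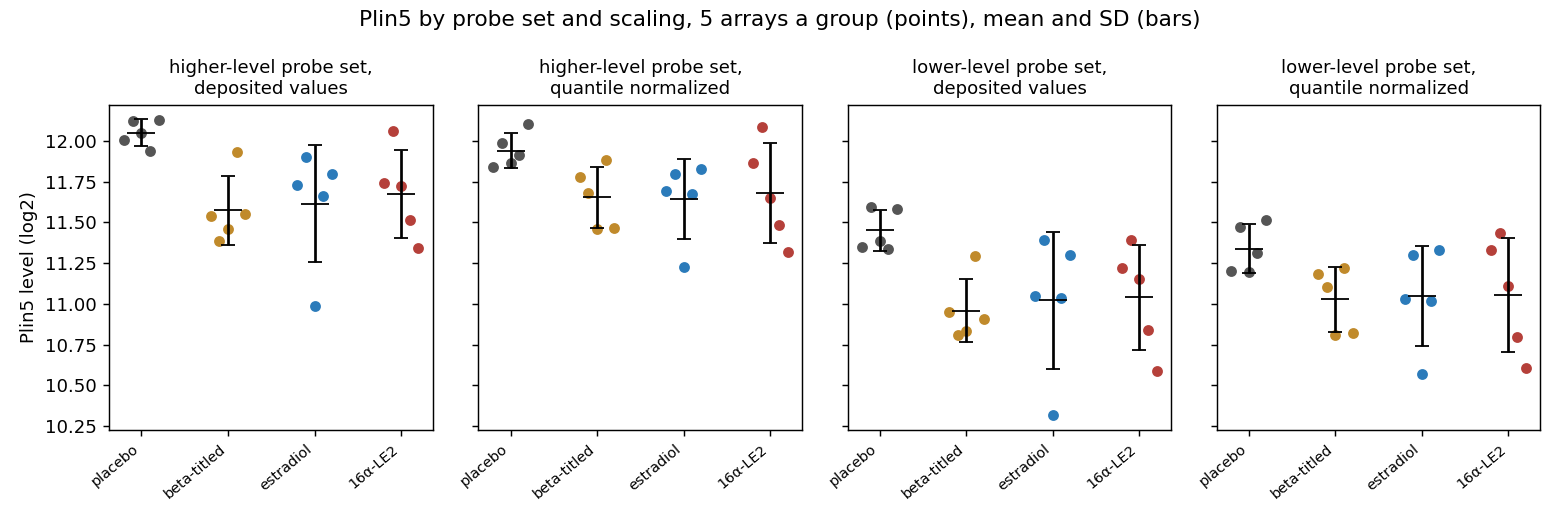
Plin5 level (log2) by group for its 2 probe sets, as deposited and after quantile normalization, with points for arrays and bars for the mean ± SD (n = 5). The placebo mean of the higher-level probe set is 12.05 as deposited and 11.94 after quantile normalization, and it is the highest of the 4 groups in every panel.

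Plin2, the perilipin found on droplets of most cells, had a different order of group means, namely 10.81 ± 0.25 with 16α-LE2, 10.69 ± 0.15 in placebo, 10.53 ± 0.44 with estradiol and 10.44 ± 0.26 in the beta-titled group (SD, n = 5). No neighbours in that order differed beyond their spread. The ends of the order, 16α-LE2 and the beta-titled group, differed by 1.29-fold (log2 difference 0.37, 95% interval 0.01 to 0.72, limma adjusted p = 0.864), and their arrays overlapped. The estradiol arrays parted, at 10.93 and 11.06 in replicates 29 and 30 and at 10.33, 10.26 and 10.06 in replicates 33, 34 and 35.

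Dgat2, which makes triglyceride by adding the last acyl chain, ran from 11.00 to 12.18 over the 20 arrays, and both ends of that range were estradiol arrays, replicates 33 and 34. Its 16α-LE2 arrays lay close together, at 11.27 ± 0.12 (SD, n = 5), below a placebo mean of 11.46 ± 0.16 (limma adjusted p = 0.827), and overlapped them. Its other probe set had log2 differences from placebo of −0.26 ± 0.21 with 16α-LE2 and −0.06 ± 0.21 with estradiol (SE). The estradiol mean by the main probe set lay 0.04 above placebo, so its sign is not settled.

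Pnpla2, the adipose triglyceride lipase that opens droplet lipolysis, had group means within 0.17 log2 units of each other. Placebo arrays stood at 10.44 and 10.54 in replicates 31 and 33 and at 11.26, 11.27 and 11.16 in replicates 32, 34 and 36, so the placebo spread (SD 0.41) was wider than any difference between groups. The 16α-LE2 difference from placebo was 0.15 (95% interval −0.23 to 0.54, limma adjusted p = 0.879).

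Lpl and Angptl4 act at the vessel wall, the first by splitting lipoprotein triglyceride and the second by inhibiting it. Angptl4 varied more than any other member. In placebo replicates 31, 32, 33, 34 and 36 it stood at 8.93, 9.40, 8.64, 9.46 and 8.94. With estradiol it was 9.89 and 9.77 in replicates 29 and 30, above every placebo array, and 8.09, 7.24 and 8.21 in replicates 33, 34 and 35, below every placebo array. With 16α-LE2 it was 9.19, 8.71, 8.51, 7.48 and 8.17 in replicates 29, 30, 32, 33 and 34, and in the beta-titled group it ran from 8.25 to 9.45.

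The Angptl4 means were 9.07 ± 0.35 in placebo, 8.85 ± 0.44 in the beta-titled group, 8.64 ± 1.15 with estradiol and 8.41 ± 0.64 with 16α-LE2 (SD, n = 5). The 16α-LE2 mean was 1.58-fold below placebo (log2 difference −0.66, 95% interval −1.45 to 0.13, limma adjusted p = 0.644) and the estradiol mean 1.35-fold below it (−0.43, interval −1.22 to 0.35, limma adjusted p = 0.586). Single arrays decided the size of both. The estradiol difference ran from −0.74 without estradiol replicate 29 to −0.0816 without replicate 34, and the 16α-LE2 difference from −0.86 without 16α-LE2 replicate 29 to −0.43 without replicate 33. Its SD within groups was 0.71 log2 units against a median of 0.16 over all genes, and 0.124% of genes had a larger one. The other Angptl4 probe set lay below the filter, at a mean of 6.07, and gave no usable level.

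By its main probe set Lpl differed little between groups. Its level was 14.26 ± 0.06 with 16α-LE2 and 14.25 ± 0.20 in placebo (SD, n = 5). In the beta-titled group it was 14.15 ± 0.10 and with estradiol 14.14 ± 0.26 (SD, n = 5). The 16α-LE2 difference from placebo was 0.01 (95% interval −0.20 to 0.22, limma adjusted p = 0.992). The 2 highest estradiol arrays were again replicates 29 and 30, at 14.39 and 14.38, against 14.18, 13.81 and 13.95 in replicates 33, 34 and 35. A second Lpl probe set parted them more widely, at 13.15 and 13.56 against 12.23, 12.30 and 12.32. On it 16α-LE2 lay 0.58 ± 0.21 (SE) above estradiol, where the main probe set gave 0.12 ± 0.10, so the size of this difference depends on the probe set.

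The remaining members act in the mitochondrion and on acyl-CoA. Ucp3, an inner-membrane carrier of muscle that rises with fatty acid load, stood at 9.77, 9.84, 9.66, 10.21 and 9.70 in placebo replicates 31, 32, 33, 34 and 36. With 16α-LE2 it was 9.67, 9.54, 9.81, 8.96 and 9.29 in replicates 29, 30, 32, 33 and 34. With estradiol it was 9.76, 9.91, 9.18, 9.35 and 9.23 in replicates 29, 30, 33, 34 and 35. In both treated groups some arrays lay inside the placebo range and others below it. The mean was 1.30-fold below placebo with 16α-LE2 (log2 difference −0.38 ± 0.16 SE, limma adjusted p = 0.484) and 1.27-fold with estradiol (−0.35 ± 0.16, limma adjusted p = 0.499). The beta-titled arrays, at 9.37 to 9.85, differed from placebo by −0.14 ± 0.16 (SE, limma adjusted p = 0.832). Its second probe set gave −0.18 ± 0.13 with 16α-LE2 and −0.32 ± 0.13 with estradiol (SE).

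Acot1, a cytosolic thioesterase that splits long-chain acyl-CoA, was the member with the widest gap between the agonists by main probe sets. Estradiol replicates 29 and 30 stood at 10.19 and 10.72, and replicates 33, 34 and 35 at 9.73, 9.61 and 9.51. The 16α-LE2 arrays were at 10.52, 10.56, 10.05, 10.26 and 10.32, within or near the placebo range of 10.14 to 10.61. The 16α-LE2 mean was 1.31-fold above estradiol (log2 difference 0.39 ± 0.19 SE, limma adjusted p = 0.875) and 1.35-fold above the beta-titled group (0.43 ± 0.19, limma adjusted p = 0.784), and the arrays overlapped in both comparisons. Both agonists were given for 4 weeks, and their doses are unknown.

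Acot2, the mitochondrial thioesterase encoded near Acot1, differed less, with group means from 11.18 to 11.38. Its 16α-LE2 mean lay 0.15 above placebo (95% interval −0.09 to 0.39, limma adjusted p = 0.773). Acot1 and Acot2 are near-identical paralogues, so a probe set can catch both. A probe set annotated to both genes, left out by the rule, had log2 differences from placebo of 0.14 with 16α-LE2, −0.24 with estradiol and −0.28 in the beta-titled group.

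Mlycd, malonyl-CoA decarboxylase, which removes the brake on mitochondrial fatty acid entry, had its highest mean in placebo, at 9.74 ± 0.17, against 9.54 ± 0.18 with 16α-LE2, 9.51 ± 0.19 in the beta-titled group and 9.49 ± 0.34 with estradiol (SD, n = 5). The differences from placebo, −0.20, −0.23 and −0.26, had limma adjusted p of 0.728, 0.707 and 0.499, and all groups overlapped. Without estradiol replicate 33 the last was −0.14.

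**Figure D3:**
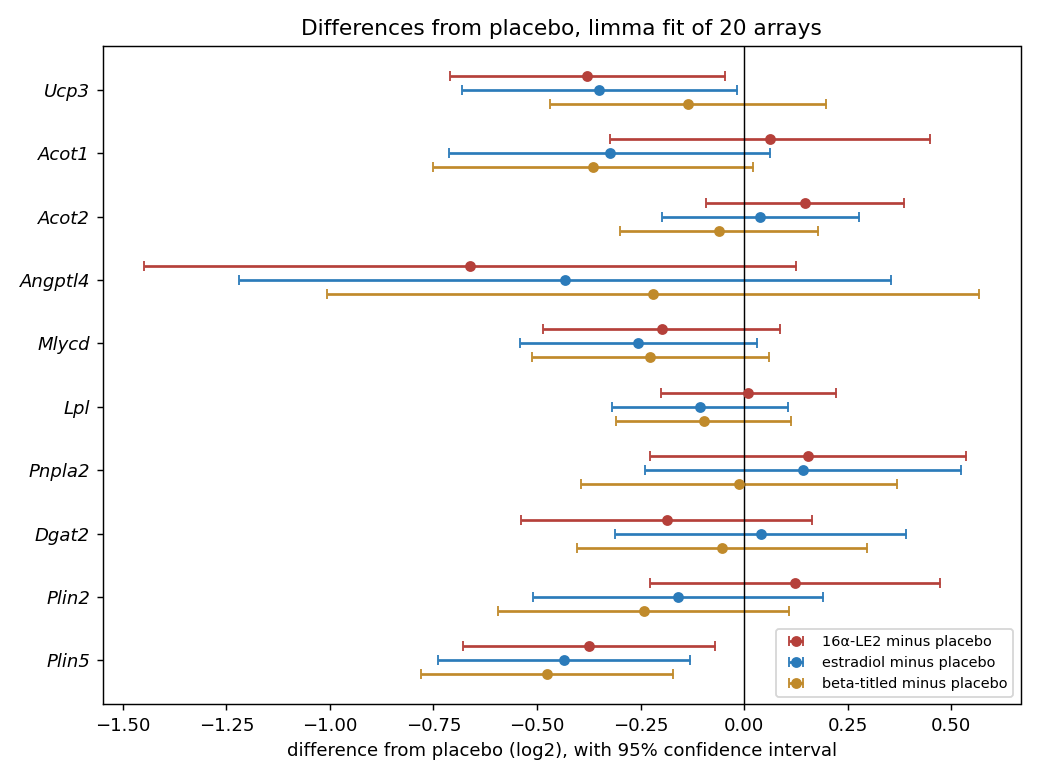
Log2 difference of each gene from placebo with its 95% confidence interval, for 16α-LE2, estradiol and the beta-titled group, from the limma fit of 20 arrays. The intervals of Plin5 lie below 0 in all 3 comparisons and those of Ucp3 in 2, before any adjustment over genes.

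By group, the highest of the 4 means was in 16α-LE2 for 5 genes (Acot1, Acot2, Lpl, Pnpla2 and Plin2), in placebo for 4 (Ucp3, Angptl4, Mlycd and Plin5) and in estradiol for Dgat2. The lowest was in the beta-titled group for 5, in 16α-LE2 for 3 and in estradiol for 2. Against placebo the median log2 difference of the 10 genes was −0.09 with 16α-LE2, −0.21 with estradiol and −0.18 in the beta-titled group, beside −0.03, −0.03 and −0.04 over all genes. All 10 means lay below placebo in the beta-titled group, where 62.6% of all genes did. After quantile normalization 4 of these, Acot2, Lpl, Pnpla2 and Dgat2, lay above placebo instead. With estradiol 7 of 10 lay below placebo, against 57.1% of all genes, and with 16α-LE2 5 of 10, against 59.7%.

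The agonists were also set against each other gene by gene, in 10 comparisons. Besides Acot1, the largest log2 differences of 16α-LE2 from estradiol by main probe sets were 0.28 for Plin2 (95% interval −0.07 to 0.63), −0.23 for Angptl4 (−1.02 to 0.56) and −0.23 for Dgat2 (−0.58 to 0.12), with limma adjusted p of 0.875, 0.922 and 0.875. The sign of the Angptl4 difference is not settled, since it was 0.0819 without estradiol replicate 29, 0.0535 without replicate 30 and 0.0036 without 16α-LE2 replicate 33. That of Dgat2 was −0.0568 without estradiol replicate 34, and that of Plin2 0.165 without replicate 35. Ucp3 (−0.03, interval −0.36 to 0.30) and Pnpla2 (0.01, interval −0.37 to 0.39) had means close to each other, but either sign is possible within these intervals. The label gives 16α-LE2 as an agonist of receptor α and estradiol as an estrogen receptor agonist. A missed threshold does not show that the agonists act alike on these genes.

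Within the estradiol group the arrays parted in several members at once. In Ucp3, Acot1, Angptl4, Lpl and Plin2 the 2 highest estradiol arrays were replicates 29 and 30. The other members, Acot2, Mlycd, Pnpla2, Dgat2 and Plin5, did not follow that division. Replicate 29 was the lowest estradiol array for Acot2 (11.07). It lay below replicate 34 for Mlycd (9.51 against 9.52) and Pnpla2 (10.74 against 11.39), and below replicate 35 for Plin5 (11.73 against 11.80). For Dgat2 replicate 33 was lowest (11.00), replicates 29 and 30 came next (11.24 and 11.34), and replicates 34 and 35 were highest (12.18 and 11.75). The share of all genes with that division was not counted. Pdk4, a kinase that restrains glucose oxidation and a textbook PPAR target outside the set, divided the same arrays, at 13.92 and 13.85 against 12.98, 12.58 and 12.58. Cpt1a, also outside the set, did not, at 8.60 and 9.03 against 8.71, 8.71 and 8.56. The estradiol SD was the largest of the 4 groups for 7 of the 10 members, against 60% of all genes. Without estradiol replicate 33 it was the largest for 6 of 10, against 30.2% of all genes. That of Angptl4 was then 1.28 and that of Acot1 0.56, while that of Plin5 was 0.10. In the other groups single arrays also led. Beta-titled replicate 35 was the highest of its group for 8 of 10 members, and replicate 32 was among the lowest 2 for all 10. In its own group, 16α-LE2 replicate 33 was among the lowest 2 for 9 of 10. In that group replicate 29 was among the highest 2 for 8 of 10 and replicate 30 for 7 of 10. They were both the highest 2 for Acot1, Angptl4 and Plin2, as in the estradiol group, but not for Ucp3 or Lpl. The shares of all genes with these orders were not counted. Beta-titled replicate 32 has the narrowest spread of values of all arrays (SD 1.30). After quantile normalization that array was still among the lowest 2 for Ucp3, Angptl4, Pnpla2, Dgat2 and Plin2. For Acot1, Acot2, Mlycd, Lpl and Plin5 it no longer was, and for Lpl it was the highest of its group (14.29). Feeding state, time of day and order of processing are not given in the labels, and their part in these differences was not tested.

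**Figure D4:**
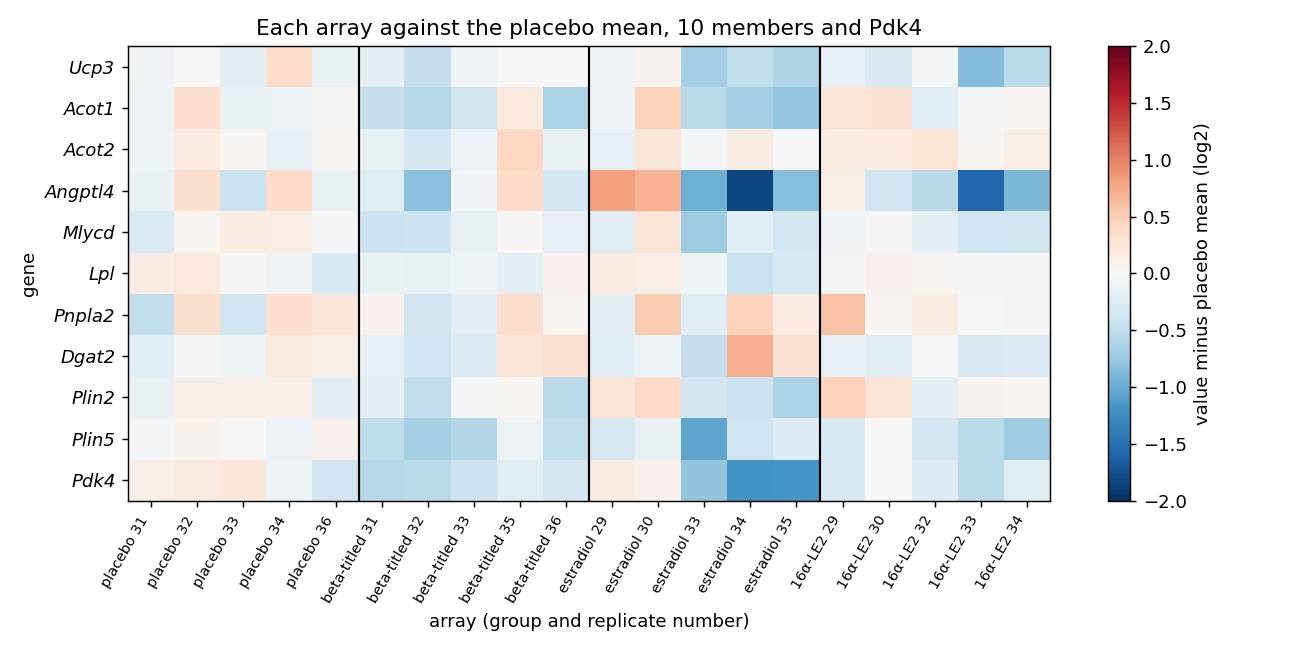
Log2 value of each array minus the placebo mean of that gene, for the 10 members and Pdk4, with arrays in columns by group. Estradiol replicates 29 and 30 are at or above 0 for Angptl4 and Pdk4, and replicates 33, 34 and 35 are below 0 for both.

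Genes whose profile over the 20 arrays was most like the average of the 10 standardized members were Trir (r = 0.88), Zfp622 (0.86), Dctn2 (0.85), Chmp4b (0.84) and Sqstm1 (0.82), an autophagy receptor. Pearson's r is given here as a description over 20 arrays that share processing and one array that stands apart, with no p because these are the highest of all genes. Without estradiol replicate 33 the values were 0.85, 0.83, 0.85, 0.81 and 0.80.

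Other genes of the pathway were read from lists of their own. Of 36 listed PPAR targets of fatty acid uptake and oxidation 26 were tested and none passed with limma in any of the 6 comparisons. Against placebo 23, 21 and 25 of the 26 were lower with 16α-LE2, with estradiol and in the beta-titled group, with median log2 differences of −0.09, −0.07 and −0.17. Over all genes 59.7%, 57.1% and 62.6% were lower, and of the 10 cardiomyocyte markers 6, 3 and 9. These counts use the deposited values, and the 26 genes were not read after quantile normalization. Pdk4 differed by −0.59 ± 0.20 (SE) with estradiol (limma adjusted p = 0.499) and by −0.27 ± 0.20 with 16α-LE2 (limma adjusted p = 0.751). Cpt1a, the gatekeeper of mitochondrial fatty acid entry in liver and other tissues, differed by −0.20 ± 0.10 with 16α-LE2. Pex11a, a peroxisome division factor, differed by −0.24 ± 0.12 with 16α-LE2 and −0.27 ± 0.12 with estradiol (SE), and its 16α-LE2 arrays lay below all placebo arrays, as did those of 2.7% of all genes. At an unadjusted limma p under 0.05 there were 0, 3 and 3 of the 26, all lower, beside 9.01%, 9.63% and 5.7% of all genes in either direction.

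Of 24 listed genes of triglyceride synthesis and the lipid droplet 21 were tested and none passed in any comparison. With 16α-LE2 10 were higher and 11 lower than placebo, where 59.7% of all genes were lower. Acaca, acetyl-CoA carboxylase, which makes the malonyl-CoA that Mlycd removes, lay 0.22 ± 0.06 (SE) above placebo with 16α-LE2 with no overlap (limma adjusted p = 0.188; 0.579% of all genes separated upwards). Agpat2, an acyltransferase, differed by −0.28 ± 0.12 with 16α-LE2. With estradiol Cidea, a droplet fusion protein, lay −0.40 ± 0.12 (SE) from placebo (limma adjusted p = 0.499), and Bscl2, the seipin gene, 0.23 ± 0.11. Cidea arrays with estradiol were 9.94, 10.17, 9.55, 10.01 and 9.77, all below the lowest placebo array at 10.19, a separation seen in 0.67% of all genes.

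Of 15 listed partners of lipoprotein lipase 7 were tested and none passed. Gpihbp1, which carries the lipase to the vessel lumen, differed from placebo by −0.27 ± 0.15 with 16α-LE2 and −0.26 ± 0.15 with estradiol (SE). Scarb1, a lipoprotein receptor, differed by −0.22 ± 0.08 with 16α-LE2, and Vldlr by −0.13 ± 0.10 with estradiol. Gpihbp1 is made by endothelium, and the average level of 8 endothelial markers, Gpihbp1 among them, was 9.21 to 9.56 on the 16α-LE2 arrays, 9.42 to 9.82 with estradiol, 9.43 to 9.72 in the beta-titled group and 9.57 to 9.93 in placebo. All 8 had a lower mean with 16α-LE2 than in placebo, as did 59.7% of all genes. In the beta-titled group all 8 were lower too (62.6% of all genes), and with estradiol 6 of 8 (57.1%). The average over 8 fibroblast markers was 9.71 to 9.89 with 16α-LE2, 10.05 to 10.29 with estradiol, 10.14 to 10.31 in the beta-titled group and 9.91 to 10.52 in placebo. The average over 3 red blood cell markers was 7.98 to 8.88 with 16α-LE2, 7.81 to 8.19 with estradiol, 7.72 to 8.04 in the beta-titled group and 7.57 to 8.01 in placebo, and Slc4a1 among them was 1.49-fold higher with 16α-LE2 than in placebo (limma adjusted p = 0.0256). In bulk tissue fewer cells of a type and less RNA per cell cannot be told apart, and the part of endothelium, fibroblasts or blood in these values was not tested.

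Among 16 listed receptors and coregulators 13 were tested, none passed, and Ppard lay below the filter. Ppara itself differed from placebo by 0.03 ± 0.12 with 16α-LE2 and −0.11 ± 0.12 with estradiol (SE; limma adjusted p = 0.980 and 0.649). Pparg stood at 8.04 to 8.19 on the 16α-LE2 arrays against 8.28 to 8.59 in placebo, with no overlap (log2 difference −0.31 ± 0.08 SE, limma adjusted p = 0.142; 2.7% of all genes separated downwards). It also had a lower mean than placebo with estradiol (−0.25 ± 0.08 SE, limma adjusted p = 0.499) and in the beta-titled group (−0.16 ± 0.08 SE, limma adjusted p = 0.707). Rxrg, a retinoid X receptor, also lay below placebo without overlap with 16α-LE2 (−0.34 ± 0.10 SE, limma adjusted p = 0.156). It differed by −0.17 ± 0.10 with estradiol and −0.16 ± 0.10 in the beta-titled group (SE). Ppargc1a, the coactivator PGC-1α, differed by −0.41 ± 0.12 (SE) with estradiol (limma adjusted p = 0.499) and −0.12 ± 0.12 with 16α-LE2.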

How the data were processed

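Total RNA of 20 ventricle samples (100 ng each) was biotin-labelled and hybridised to Affymetrix mouse arrays, per the labels' protocols. The authors deposited 1 log2 value for each of 45101 probe sets on each array. The log2 scale was read from the values (5.07 to 15.31). Of the summarization, normalization, centring and log base nothing is known from the labels, and a change of 1 is taken as 2-fold.

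After 64 control probe sets were left out, 34945 probe sets had 1 gene symbol, 932 several and 9160 none. Genes entered by the 1-symbol probe set of highest mean, if above 6.93, the median of all probe sets. One limma model of group means over the 20 arrays (limma 3.58.1, R 4.3.3, eBayes with trend) served every contrast, and calls were made at an adjusted p under 0.05. Named genes are the 10 members, the 2 of smallest p in each pathway list for 16α-LE2 and estradiol against placebo, and Pdk4, Ppara and Ppargc1a. Members and lists were chosen with earlier results of these data known. In simulated data for 16α-LE2 against placebo (200 of 12082 genes changed, 5 runs), 55.4% of changes of 0.4 and 94.8% of 0.8 were recovered. These are not rates for the members, whose SDs within groups, 0.17 to 0.71, all lay above the median gene's 0.16. Replicate numbers were not used as pairs in the main fit. Between groups, deviations of same-numbered arrays correlated from −0.35 to 0.51 over 17 pairs, with a median of −0.0201. Those of arrays with unlike numbers correlated from −0.54 to 0.66 over 133 pairs, with a median of 0.0087. These ranges do not settle whether equal numbers mark a shared source. Figures used matplotlib 3.10.9.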

Additional observations from a re-analysis of the deposited data

Results flagged for a closer look

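Among the 40 combinations of a member and a group, 4 had 1 array far from the other 4, by Dixon's ratio of gap to range above 0.71. Chance gives such an array in about 1 in 20 groups. Acot2 stood at 11.66 in beta-titled replicate 35, with the others at 10.90 to 11.11. Lpl stood at 14.33 in beta-titled replicate 36, with the others at 14.07 to 14.14. Pnpla2 stood at 11.52 in 16α-LE2 replicate 29, with the others at 10.91 to 11.08. Plin5 stood at 10.99 in estradiol replicate 33, with the others at 11.66 to 11.90.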

How the results depend on the processing

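The count of members called was 0 of 10 under each alternative run. Of 1260 alternative values of the 40 member results, 1204 kept their direction and side of the threshold, and no model fit gave an adjusted p under 0.05. In unadjusted exact permutation tests Plin5 passed with 16α-LE2 (−0.37), estradiol (−0.43) and the beta-titled group (−0.48) against placebo, and Acot1 (p = 0.0476) and Plin2 (p = 0.0397) with 16α-LE2 against the beta-titled group. The cause of the changes of sign below was not tested. With array weights the log2 differences were −0.0061 for Acot1 and −0.0417 for Lpl with 16α-LE2 against placebo, −0.0448 for Mlycd, −0.0506 for Plin5 and −0.14 for Pnpla2 with 16α-LE2 against estradiol, and 0.0127 for Pnpla2 and 0.0458 for Dgat2 in the beta-titled group. Without the 3 arrays of narrowest spread, an alternative added after seeing the data, they were −0.0569 for Mlycd, −0.0828 for Pnpla2 and −0.0962 for Plin5 with 16α-LE2 against estradiol, and 0.0538 for Acot2, 0.0727 for Pnpla2 and 0.0955 for Dgat2 in the beta-titled group. The mean of probe sets gave −0.0076 for Dgat2 with estradiol and 0.0575 for Ucp3 with 16α-LE2 against estradiol, and median centring −0.013 for Lpl with 16α-LE2. Quantile normalization gave 0.0338 for Lpl, 0.13 for Acot2, 0.13 for Dgat2 and 0.15 for Pnpla2 in the beta-titled group.

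The replicate number was also fitted as a replicate block, which the main fit did not use. The difference from placebo was then −0.0432 for Acot2 with estradiol. With 16α-LE2 the differences from placebo were −0.0677 for Lpl, −0.22 for Plin2 and −0.24 for Acot1. The smallest limma adjusted p of all model fits, 0.0863, was that of Angptl4 with 16α-LE2 in this fit (−1.30 ± 0.30 SE).

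Leaving out each array in turn gave ranges that crossed 0 for 11 results: with estradiol against placebo, −0.0085 to 0.0898 for Acot2 and −0.13 to 0.17 for Dgat2; with 16α-LE2 against placebo, −0.0662 to 0.0598 for Lpl. In the beta-titled group they were −0.181 to 0.0076 for Acot2, −0.145 to 0.0294 for Dgat2 and −0.137 to 0.0741 for Pnpla2. With 16α-LE2 against estradiol they were −0.58 to 0.0819 for Angptl4, −0.0569 to 0.181 for Mlycd, −0.0962 to 0.144 for Plin5, −0.0971 to 0.104 for Pnpla2 and −0.118 to 0.0943 for Ucp3. Over all genes, calls ranged over the alternatives from 8 to 357 for 16α-LE2 against placebo, 0 to 20 against estradiol and 7 to 122 against the beta-titled group. For estradiol they ranged from 0 to 1, both against placebo and against the beta-titled group. Pooling placebo with the beta-titled group applied to 2 comparisons. With 5 arrays a group, their number limits the precision.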
